A study of Bos taurus with 24 samples.

Results

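Histone methylation is laid down by methyltransferases (writers) and taken off by demethylases (erasers). The 10 genes described here are 5 writer subunits and 5 erasers. They are called enzymes below for short, although EED and SUZ12 are not the catalytic subunit of their complex. They were chosen by symbol, and each symbol matched 1 of the 17071 rows of the deposited table. Each library held the RNA of 1 bovine oocyte at metaphase II. In the injected group, denuded germinal vesicle oocytes had been microinjected with non-specific (scrambled) siRNA and a fluorescent dextran (12 oocytes), and the control oocytes had not been injected (12 oocytes, genotype label wild type). Oocytes of both groups were held in the CDK inhibitor roscovitine, were then matured in vitro, and were collected once they had a polar body. All came from slaughterhouse ovaries, and no source used here ties an oocyte to its animal, so p-values measure only how these oocytes vary. Effects of the needle, the dextran and the siRNA cannot be told apart, because every injected oocyte received all of them.

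During growth, the mammalian oocyte acquires much of the histone methylation that it later passes to the embryo, and mRNA for the enzymes is stored while transcription is off. In the mouse, methylation of H3K36 by SETD2 and removal of H3K4 methylation by KDM1B are needed for the DNA methylation of the oocyte, and H3K27 methylation by the Polycomb repressive complex PRC2 in the oocyte silences some genes on the maternal allele of the embryo. Embryos later remove H3K4 and H3K27 methylation with KDM5 and KDM6 enzymes.

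Libraries were made by CEL-seq2, which primes from the poly(A) tail and tags each molecule with a unique molecular identifier (UMI), and values were deposited as RPM, the share of a gene among all tags scaled to a fixed total. An mRNA gives 1 tag whatever its length, so RPM of different genes were compared without a correction for length. How well the 3′ end of each gene was captured was not measured. Injected oocytes held 204285 to 382077 UMIs and non-injected oocytes 134080 to 415554, and 1 UMI was worth 2.27 to 7.35 RPM. All 20 measured oocyte markers averaged above 10 RPM, with a median of 416 RPM. The 17 measured cumulus and granulosa markers had a median of 2.25 RPM and summed to 172 to 311 RPM in injected and 188 to 269 RPM in non-injected oocytes. LUM was at 0 in all libraries, and FSHR averaged 0 RPM in injected oocytes and 0.189 RPM in the others, while HAS2, the highest of the list, averaged 86.4 RPM over all oocytes. The part of these cells in the results was not tested. Of 6 measured blood markers LYZ averaged 22.9 RPM and CD3E 7.99 RPM over all oocytes, CD68 and CD79A were under 1 RPM, and PTPRC and TYROBP were at 0. The list summed to 7.13 to 50.2 RPM in injected and 0 to 58.8 RPM in non-injected oocytes.

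The mRNA of EZH2, the catalytic subunit of PRC2, was the most abundant of the 10. EZH2 averaged 188 ± 57.4 RPM (SD, n = 24), which put it above 93.2% of all rows. KDM1B followed at 59.3 ± 18.1 RPM, SETDB1 at 48.3 ± 17.9 RPM, KDM6B at 38.7 ± 16.0 RPM, SUZ12 at 30.2 ± 14.3 RPM and KDM4A at 15.02 ± 6.92 RPM. Under a mean of 10 RPM were EED at 9.64 ± 8.06, SETD2 at 4.52 ± 4.88, KDM5B at 2.79 ± 2.85 and KDM6A at 0.404 ± 1.1 RPM. Writers and erasers were thus mixed in the order of levels, with a writer at its top and an eraser at its end. EZH2 was above KDM1B in 23 of 24 oocytes, by 1.57 ± 0.62 on the scale of log2(RPM + 5) (SD over oocytes). None of the other pairs of neighbours in the order was separated by more than the SD of their difference: KDM1B exceeded SETDB1 in 17 of 24 oocytes, SETDB1 exceeded KDM6B in 14, KDM6B exceeded SUZ12 in 16, and SUZ12 exceeded KDM4A in 20.

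**Figure D1:**
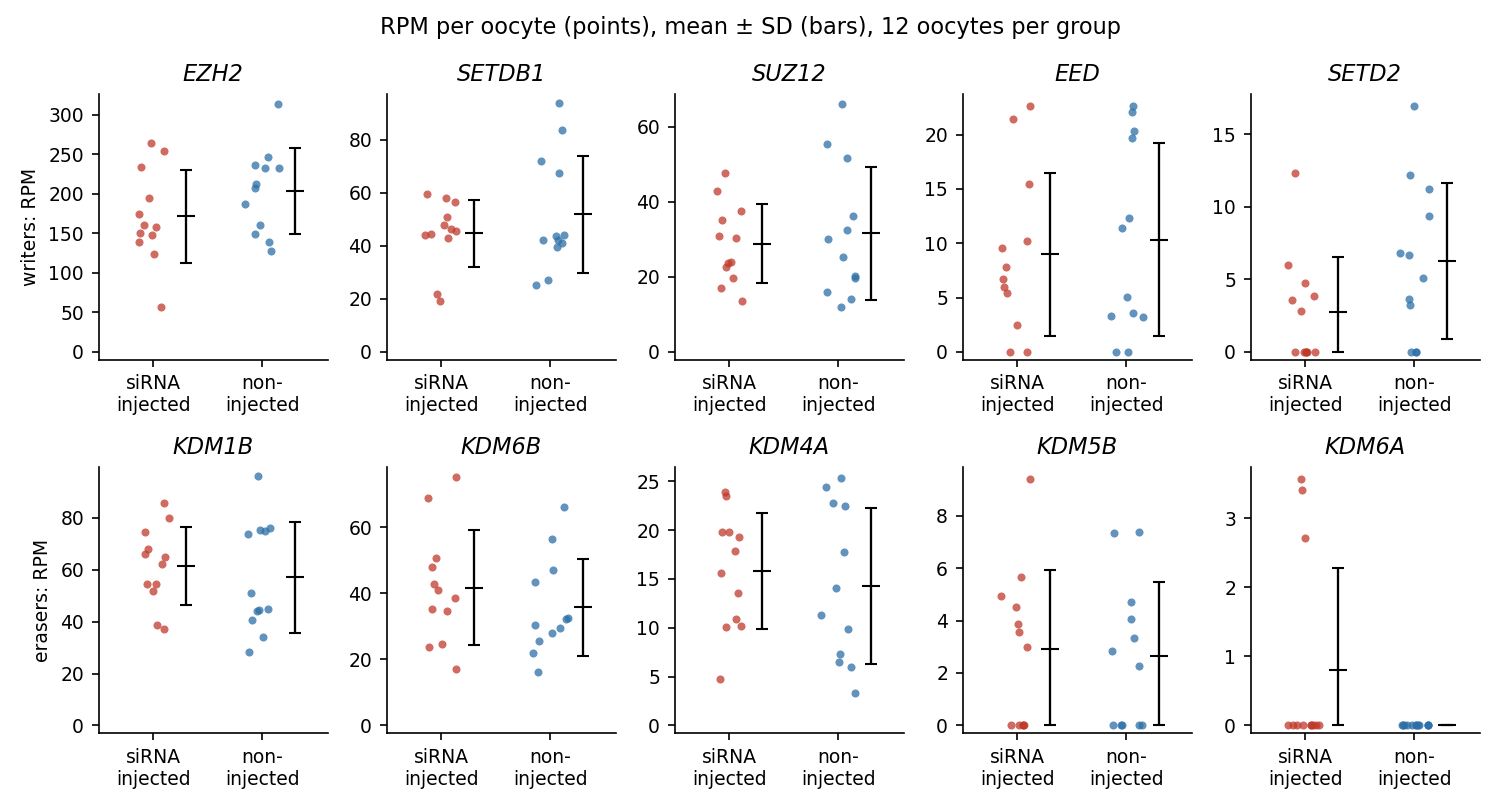
RPM (y axis, linear, a scale of its own in each panel) of the 5 writers (upper row) and 5 erasers (lower row) in siRNA injected (left, red) and non-injected (right, blue) oocytes. Points are single oocytes and bars the mean ± SD of 12 oocytes, cut at 0. The groups overlap in every panel, injected oocyte 9 is the lowest EZH2 point at 56.9 RPM, and KDM6A is above 0 in 3 injected oocytes.

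Rows that averaged 10 RPM or more (7256) were compared between the groups with limma on log2(RPM + 5). P-values were adjusted over those rows by the method of Benjamini and Hochberg, and a difference was called at an adjusted p under 0.05 with a fold change over 1.2. Of the 10 enzymes 6 passed this filter (EZH2, SUZ12, SETDB1, KDM1B, KDM4A and KDM6B). None of the 6 was called, where 0.221% of all rows tested were. At an unadjusted p under 0.05 the count was also 0 of 6, against 12.4% of all rows tested. On recovered UMI counts edgeR called 0 of the 6, against 0.0965% of rows, and DESeq2 called 0, against 1.6%, although DESeq2 gave an adjusted p to only 2 of them. At an unadjusted p under 0.05 the count was 0 of 6 with either tool, against 11.6% of rows. Without the filter limma called 0 of the 10 enzymes and 0% of 16442 rows, and at an unadjusted p under 0.05 it had 0 of 10, against 8.1% of rows. edgeR without the filter called 0 of 10, against 0.0851% of rows. It had 1 of 10 (KDM6A, on 3 UMIs) at an unadjusted p under 0.05, near the 9.31% of all rows. The RPM ranges of injected and non-injected oocytes overlapped for each of the 10 enzymes, for KDM6A only at 0. How often the ranges overlap over all rows was not counted. The pseudocount shrinks the fold change of low genes. Since RPM counts only RNA caught by its poly(A) tail, relative to all such RNA, neither how much of an mRNA an oocyte held nor how long its tail was could be read from it.

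The core of PRC2 consists of EZH2, EED, which binds methylated H3K27 and stimulates the enzyme, and SUZ12, the scaffold of the complex. EZH2 (ENSBTAG00000009426) ranged over 56.9, 159 and 264 RPM in injected oocytes (lowest, median, highest) and over 127, 210.1 and 314 RPM in non-injected oocytes. The median was lower in the injected group and 9 of 12 injected oocytes lay below the non-injected median, but 10 of 12 lay inside the non-injected range. The log2 fold change was -0.28 (standard error 0.18, 95% interval -0.64 to 0.07, limma adjusted p = 0.528), which did not pass the test. The interval spans folds of 0.641 to 1.05. Injected oocyte 9 held the lowest value, on 19 UMIs, and without it the log2 fold change was -0.16.

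SUZ12 (ENSBTAG00000018752) ranged over 13.6, 27.2 and 47.8 RPM in injected and over 12.0, 27.7 and 66.2 RPM in non-injected oocytes. The medians were nearly equal, with 6 of 12 injected oocytes on either side of the non-injected one. Its log2 fold change was -0.03 (standard error 0.24, 95% interval -0.52 to 0.45, limma adjusted p = 0.972). The sign turned when any of 6 single oocytes was left out, with a range of -0.12 to 0.066 over all such fits.

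EED (ENSBTAG00000007847) ranged over 0, 7.28 and 22.6 RPM in injected and over 0, 8.21 and 22.6 RPM in non-injected oocytes, and was detected in 10 of 12 oocytes per group. It rested on 32 UMIs in all injected and 38 UMIs in all non-injected oocytes, and was below the mean that the test required. In a limma fit over all rows without that filter, its log2 fold change was -0.07 (95% interval -0.77 to 0.63, adjusted p = 0.96).

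Within the core the mRNAs were far from equal in level. EZH2 took 80.8% ± 8.17 of the RPM of the 3 genes in injected and 82.4% ± 7.43 in non-injected oocytes (SD, n = 12 each), and it exceeded SUZ12 and EED in 24 of 24 oocytes. SUZ12 exceeded EED in 22 of 24. Summed over the 3 genes, PRC2 core mRNA was at 209 ± 61.0 RPM in injected oocytes and 246 ± 54.0 RPM in the non-injected, a difference smaller than the SD of either group.

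SETDB1 (ENSBTAG00000000098), which methylates H3K9 and silences retrotransposons, ranged over 19.1, 45.9 and 59.5 RPM in injected and over 25.4, 43.0 and 93.7 RPM in non-injected oocytes. The highest 4 values were all from non-injected oocytes, while the median was slightly higher in the injected group, where 10 of 12 oocytes lay above the non-injected median. The log2 fold change, from mean log2(RPM + 5), was -0.16 (standard error 0.21, 95% interval -0.58 to 0.26, limma adjusted p = 0.81).

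SETD2 (ENSBTAG00000002948), the enzyme that trimethylates H3K36, was above 0 in 6 of 12 injected and in 9 of 12 non-injected oocytes. Its RPM ranged over 0, 1.41 and 12.3 in injected and over 0, 5.88 and 16.98 in non-injected oocytes. This rested on 11 UMIs in all injected against 24 in all non-injected oocytes, and 10 of 12 injected oocytes lay below the non-injected median. Among the 10 enzymes SETD2 had the most negative log2 fold change without the filter, at -0.50 (95% interval -1.04 to 0.04, adjusted p = 0.65 from limma over all rows), and it did not pass. The pseudocount shrinks this value, and on UMI counts edgeR without the filter gave -1.05 (adjusted p = 0.588). Oocytes held 0 to 6 UMIs of SETD2.

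KDM1B (ENSBTAG00000014608), a flavin-dependent enzyme that demethylates H3K4, was the most abundant eraser. It ranged over 37.2, 63.5 and 85.8 RPM in injected and over 28.5, 48.0 and 96.2 RPM in non-injected oocytes. The injected oocytes lay inside the non-injected range in 12 of 12 cases and above the non-injected median in 10 of 12. The log2 fold change was 0.14 (standard error 0.19, 95% interval -0.23 to 0.52, limma adjusted p = 0.805).

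KDM6B (ENSBTAG00000048062), which demethylates H3K27, ranged over 16.98, 39.7 and 75.3 RPM in injected and over 16.3, 31.3 and 66.1 RPM in non-injected oocytes, and 9 of 12 with injection exceeded the median of those without. Its log2 fold change was 0.18 (standard error 0.22, 95% interval -0.26 to 0.63, limma adjusted p = 0.784). KDM4A (ENSBTAG00000002078), which acts on methylated H3K9 and H3K36, ranged over 4.77, 16.7 and 23.9 RPM in injected and over 3.35, 12.7 and 25.4 RPM in the non-injected (log2 fold change 0.17, standard error 0.25, 95% interval -0.34 to 0.68, limma adjusted p = 0.833). For both genes the intervals include no change and reach folds of 1.54 and 1.598 upward.

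KDM5B and KDM6A were near or under the limit of detection. KDM5B (ENSBTAG00000006175), which demethylates H3K4, was detected in 7 of 12 oocytes per group, on 10 UMIs in all injected and 9 UMIs in all non-injected oocytes, and averaged 2.91 ± 3.01 RPM in injected oocytes and 2.66 ± 2.81 RPM in the non-injected (SD, n = 12 each). KDM6A (ENSBTAG00000003740), the X-linked relative of KDM6B, had a single UMI in each of 3 injected oocytes (2, 4 and 7) and none in the other 9. In non-injected oocytes it had 0 of 3429425 UMIs, which allows a level of up to 0.875 RPM by a floor of 3 UMIs over the group. With 3 UMIs in one group and 0 in the other, no fold is given.

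**Figure D2:**
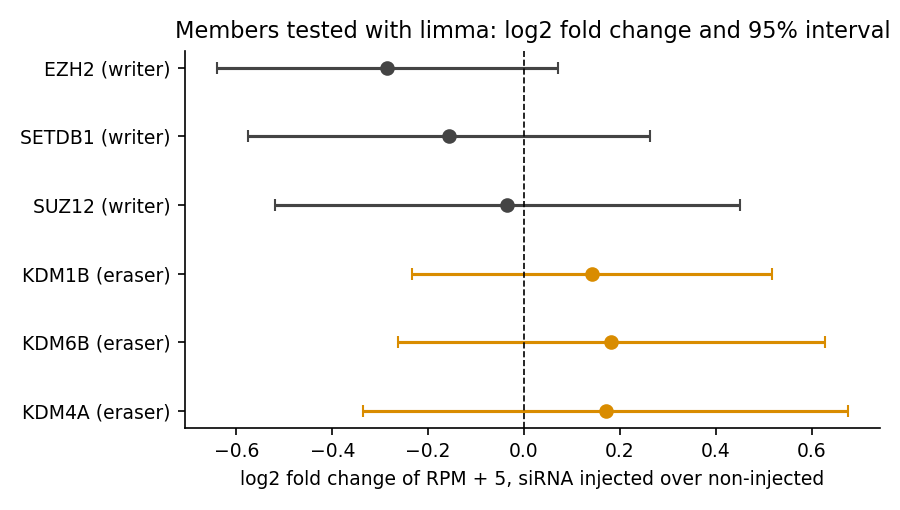
Log2 fold change of siRNA injected over non-injected oocytes (x axis, log2 of RPM + 5) for the 6 enzymes above the filter (y axis). Points are limma estimates and bars 95% intervals, in grey for writers and orange for erasers. All 6 intervals include 0, from -0.28 for EZH2 to 0.18 for KDM6B.

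Several of these enzymes have a close paralogue with a related activity, and the paralogues were often unequal in level. EZH2 exceeded EZH1, its alternative in PRC2, in 24 of 24 oocytes (by 3.56 ± 0.70 on the scale of log2(RPM + 5), SD over oocytes). EZH1 was at 10.3 ± 5.90 RPM in injected oocytes and 13.99 ± 8.50 RPM in the non-injected. SETDB1 exceeded SETDB2 in 24 of 24 oocytes, and SETDB2 was at 6.35 ± 5.81 RPM in injected oocytes and 3.34 ± 3.82 RPM in the non-injected. Differences on this scale from a gene as low as EZH1 are compressed by the pseudocount.

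Among the erasers of H3K4 the order differed between the families. KDM1B exceeded KDM1A in 22 of 24 oocytes (by 1.13 ± 0.69 on the log2(RPM + 5) scale). KDM5B, by contrast, was below KDM5A in 24 of 24 oocytes. KDM5B was undetected in 5 of 12 oocytes per group, and KDM5A was at 148 ± 20.3 RPM in injected oocytes and 175 ± 33.9 RPM in the non-injected. KDM5A mRNA was thus at a level like that of EZH2, while KDM5B had a median of 1 UMI per oocyte in both groups.

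Among the erasers of H3K27, KDM6A was below KDM6B in 24 of 24 oocytes. KDM6A was detected in 3 of 24 oocytes and reached at most 3.57 RPM, while the lowest KDM6B value was 16.3 RPM, so no size of the difference is given. In the KDM4 family, which acts on H3K9 and H3K36, KDM4B at 37.3 ± 16.1 RPM in injected oocytes and 28.5 ± 10.8 RPM in the non-injected was above KDM4A in 19 of 24 oocytes and below it in 0. KDM4C was below KDM4A in 19 of 24. GLYR1, a nucleosome-binding partner of KDM1B, was at 71.4 ± 21.6 RPM in injected oocytes and 56.1 ± 11.9 RPM in the non-injected, a level not separated from KDM1B (higher than KDM1B in 15 of 24 oocytes). ATF7IP, a partner that stabilizes SETDB1, was below SETDB1 in 24 of 24 oocytes, at 10.3 ± 7.64 RPM in injected oocytes and 5.69 ± 7.98 RPM in the non-injected.

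**Figure D3:**
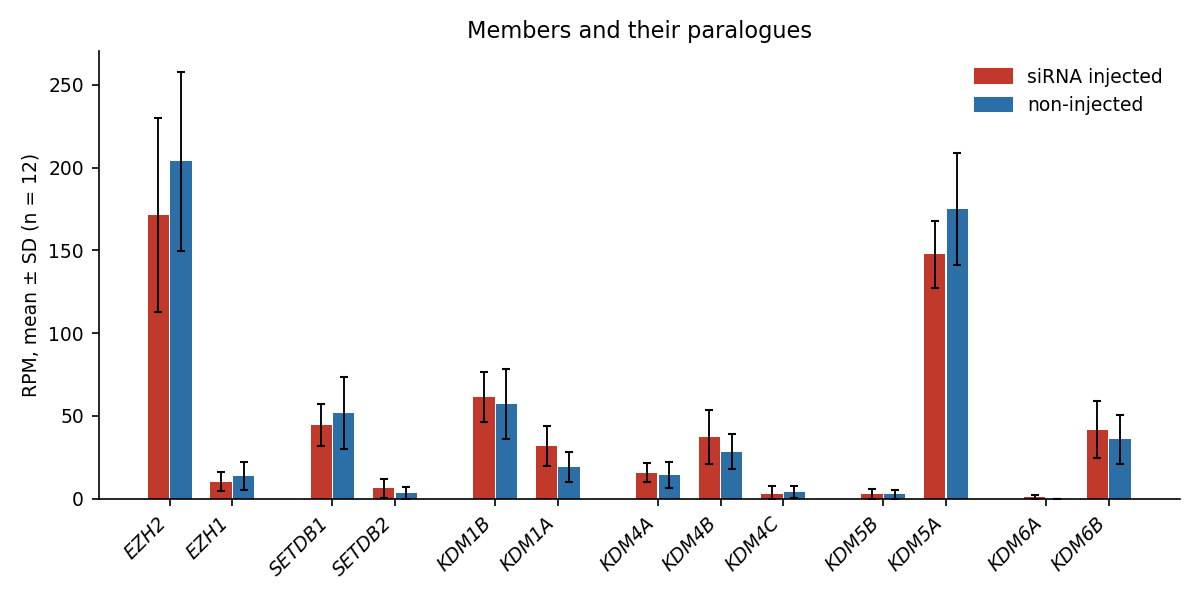
Mean RPM (y axis, linear from 0) of 6 enzyme families (x axis) in siRNA injected (left bar, red) and non-injected (right bar, blue) oocytes. Error bars are SDs of 12 oocytes, cut at 0. EZH2, SETDB1 and KDM1B stand above their paralogues, and KDM5A, at 148 RPM in injected oocytes and 175 RPM in the non-injected, and KDM6B stand above KDM5B and KDM6A.

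Taken as sums per oocyte, the 5 writers held more RPM than the 5 erasers. The sums do not cover the same marks, so they are not a balance at any mark. KDM1B, which took 50.9% of the erasers' sum on average, acts on H3K4, and none of the 5 writers does. Enzymes outside the 10, such as the writer KMT2C (mean 244 RPM) and the eraser KDM5A (161 RPM), are in neither sum. The 5 writers summed to 257 ± 60.0 RPM in injected oocytes and 304 ± 66.2 RPM in the non-injected, and the 5 erasers to 123 ± 30.6 RPM in injected oocytes and 109.8 ± 31.0 RPM in the non-injected (SD, n = 12 each). Writers exceeded erasers in 11 of 12 injected and 12 of 12 non-injected oocytes. The exception was injected oocyte 9, in which EZH2 was lowest. EZH2 accounted for 65.4% ± 11.6 of the writers' sum with injection and 66.8% ± 8.27 without it. Without EZH2 the other 4 writers exceeded the erasers in 1 of 12 injected and 4 of 12 non-injected oocytes.

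The ratio of writers to erasers ranged over 0.888, 2.18 and 3.44 in injected oocytes (lowest, median, highest) and over 1.53, 2.58 and 5.36 in non-injected oocytes. The ratio was lower on average in the injected group, at 2.20 ± 0.69 against 2.96 ± 1.07 in the non-injected group (SD, n = 12 each), and 3 of 12 with injection exceeded the median of those without. The difference of -0.753 (injected minus non-injected) was larger than the SD of the injected and smaller than that of the non-injected oocytes, the ranges overlapped, and no p was computed for a score over genes that were chosen together. Without the oocyte of lowest ratio, injected oocyte 9, the injected mean was 2.32, and without that of highest ratio, non-injected oocyte 2, the non-injected mean was 2.74.

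At single marks the order of writer and eraser was not always the same. PRC2 core mRNA, summed over EZH2, EED and SUZ12, exceeded the mRNA of the H3K27 demethylases KDM6A and KDM6B in 24 of 24 oocytes. The ratio was 6.21 ± 4.21 in injected and 8.01 ± 4.17 in non-injected oocytes. The catalytic subunit EZH2 alone was below KDM6B in injected oocyte 9, at 56.9 against 68.9 RPM. SETDB1, a writer at H3K9, exceeded KDM4A in 24 of 24. Other H3K9 erasers outside the 10 enzymes lay on both sides of SETDB1 (48.3 RPM) in mean level over all oocytes. JMJD1C, of the KDM3 family, was above it at 91.8 RPM. KDM3A at 33.5 RPM and KDM4B at 32.9 RPM were below it. Of the pair of enzymes that meet at H3K36, SETD2 was below KDM4A in 21 of 24 oocytes and above it in 2. Other H3K36 writers outside the 10 enzymes lay on both sides of KDM4A in mean level over all oocytes. NSD3 at 113 RPM and ASH1L at 36.6 RPM were above it. NSD1 at 6.01 RPM, NSD2 at 12.2 RPM, SMYD2 at 13.0 RPM and SETD5 at 14.3 RPM were below it.

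**Figure D4:**
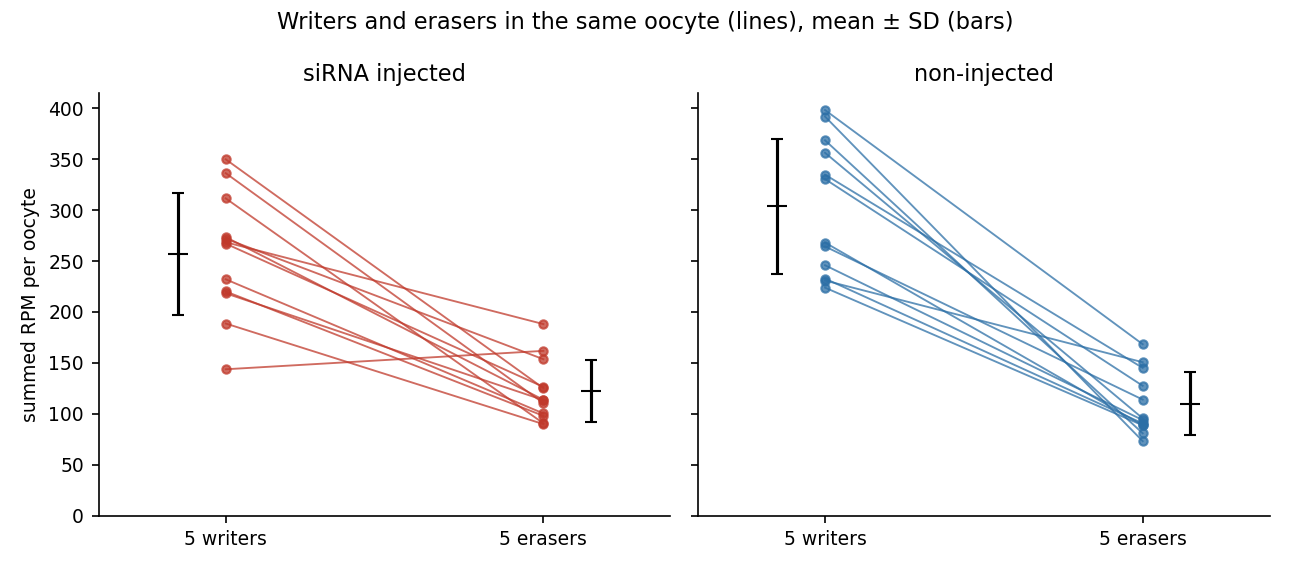
Summed RPM (y axis, linear from 0) of the 5 writers and the 5 erasers in siRNA injected (left panel, red) and non-injected (right panel, blue) oocytes. Each line joins both sums of 1 oocyte, and bars are the mean ± SD of 12 oocytes. The sums do not cover the same marks. The lines fall from writers to erasers in 23 of 24 oocytes, and the exception is injected oocyte 9.

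The spread between oocytes was set beside that of UMI counting alone, as a description. Counting noise is a smaller part of the spread for abundant genes, so the gaps are not ranked between enzymes. The coefficient of variation (SD over mean) of EZH2 was 33.5% in injected and 25.9% in non-injected oocytes, where Poisson counting at these depths would give 14.6% in injected and 13.8% in non-injected oocytes. For KDM1B it was 24.2% in injected oocytes, at the 24.3% of counting alone, and 36.5% in non-injected oocytes, above the 26.3% of counting alone. SUZ12 was near its counting value in injected oocytes (36.3% against 35.9%) and above it in non-injected oocytes (54.6% against 36.1%). SETDB1 was at its counting value in injected oocytes (28.2% against 28.3%) and above it in non-injected oocytes (42.1% against 27.6%). KDM4A was below it in injected (37.7% against 47.3%) and above it in non-injected oocytes (56.2% against 49.9%). KDM6B, EED and SETD2 were above counting in both groups. In injected oocytes KDM6B was at 41.5% against 29.7%, EED at 83.2% against 62.5% and SETD2 at 136% against 107%. KDM5B lay below its counting value in both groups, at 103% in injected oocytes (counting 112%) and 105% in non-injected oocytes (counting 122%). UMI counting covers sampling of molecules in the library and not losses before it.

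**Figure D5:**
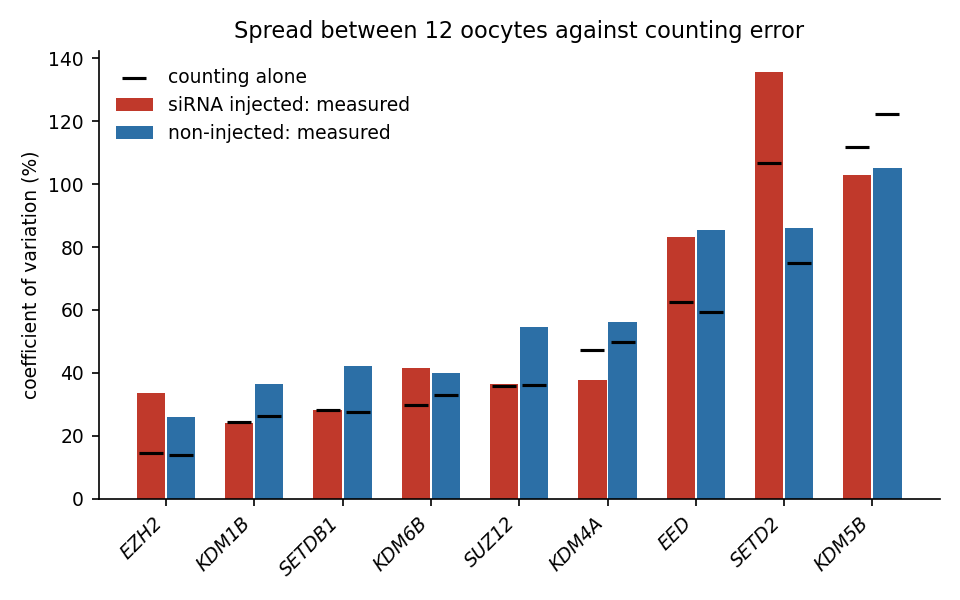
Coefficient of variation in percent (y axis, from 0) of 9 enzymes over 12 siRNA injected (left bar, red) and 12 non-injected (right bar, blue) oocytes, with the value that counting alone gives as a black dash. KDM6A is left out because it had 0 UMIs in non-injected oocytes. For EZH2 in injected oocytes the bar stands at 33.5% and the dash at 14.6%, and for KDM5B the bars end below the dashes.

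The wider machinery of histone methylation was read from 8 other lists, with 116 of 130 genes measured and 82 above the filter. None of the 82 was called by limma (0.221% of all rows tested were), and 10 had an unadjusted p under 0.05, 5 higher and 5 lower, which is 12.2% against 12.4% of all rows tested. edgeR called 0 (0.0965% of all rows tested), with 9 of 82 at an unadjusted p under 0.05 (11.6% of all rows tested). DESeq2 gave an adjusted p to 34 of the 82 and called 1, while over all rows it gave one to 3317 and called 116. The gene it called was MAT2B, a regulatory subunit of the enzyme that makes S-adenosylmethionine, the methyl donor of these writers. MAT2B was at 789 ± 77.2 RPM in injected oocytes and 993 ± 139 RPM in the non-injected and 12 of 12 injected oocytes lay under the median of the others. Its log2 fold change was -0.32 by limma (standard error 0.10, adjusted p = 0.121) and -0.32 by DESeq2 (adjusted p = 0.0173).

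The accessory genes of PRC2 spanned a wide range of levels, with means over all oocytes from 0.41 RPM for PHF19 to 1483 RPM for RBBP7 and a median of 25.9 RPM over the 11 measured. RBBP7, a histone-binding subunit, was at 1485 ± 298 RPM in injected oocytes and 1481 ± 187 RPM in the non-injected, and JARID2, which helps to recruit the complex, at 729 ± 117 RPM in injected oocytes and 814 ± 253 RPM in the non-injected. MTF2, a Polycomb-like subunit that guides PRC2 to DNA, was at 261 ± 61.4 RPM in injected oocytes and 333 ± 68.2 RPM in the non-injected (log2 fold change -0.35, limma adjusted p = 0.244, with 10 injected oocytes below the median of the others). All 8 tested genes of this list had negative log2 fold changes in limma, with a median of -0.11 where the median of all rows tested was 0.02. LCOR, also on this list, was at 13.2 ± 10.4 RPM in injected oocytes and 22.1 ± 16.3 RPM in the non-injected (limma adjusted p = 0.468). Which transcript of LCOR was counted is not known from a value per gene. None passed (0.221% of all rows tested did), and the smallest adjusted p by limma was 0.244. RBBP7 was at -0.01, and without injected oocyte 3, 6 or 8 the number of negative genes fell to 6 of 8. On UMI counts 7 of 8 were negative in edgeR and 5 of 8 in DESeq2.

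Of 9 tested PRC1 subunits, which form the other Polycomb complex, none passed (0.221% of all rows tested did). Of them 4 had positive and 5 negative log2 fold changes. RYBP and YAF2, alternative subunits of PRC1, were highest, with RYBP at 353 ± 88.9 RPM in injected oocytes and 388 ± 94.2 RPM in the non-injected. PHC2 was at 139 ± 40.4 RPM in injected oocytes and 94.6 ± 31.3 RPM in the non-injected (log2 fold change 0.55, limma adjusted p = 0.172, with 9 injected oocytes above the median of the others), and PCGF2 at 142 ± 35.1 RPM in injected oocytes and 182 ± 42.1 RPM in the non-injected (log2 fold change -0.36, adjusted p = 0.26).

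The methyltransferases of H3K4 and their COMPASS subunits gave 17 tested genes, 0 called (0.221% of all rows tested were). Their median log2 fold change was 0.09. KMT2C, a writer at enhancers, was highest at 250.0 ± 53.2 RPM in injected oocytes and 238 ± 67.4 RPM in the non-injected. BOD1L1, a large subunit related to SETD1A complexes, was at 159.9 ± 71.1 RPM in injected oocytes and 245 ± 64.1 RPM in the non-injected (log2 fold change -0.71, limma adjusted p = 0.11, with 10 injected oocytes below the median of the others). NCOA6, a coactivator found with KMT2C and KMT2D, was at 38.8 ± 13.1 RPM in injected oocytes and 23.7 ± 10.1 RPM in the non-injected (log2 fold change 0.65, limma adjusted p = 0.195, with 11 injected oocytes above the median of the others).

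Of 14 tested H3K9 writers and partners none was called (0.221% of all rows tested were). In limma 12 had positive log2 fold changes, with a median of 0.17 where the median of all rows tested was 0.02. Without injected oocyte 1, 3, 4 or 8, or non-injected oocyte 5 or 12, the number of positive genes fell to 10 of 14. After rescaling by TMM 11 of 14 had a positive log2 fold change, and in edgeR and DESeq2 10 of 14. The most abundant, TRIM28, a corepressor that recruits SETDB1, had a negative log2 fold change, at 1060.2 ± 217 RPM in injected oocytes and 1309 ± 289 RPM in the non-injected (log2 fold change -0.31, limma adjusted p = 0.307, with 10 injected oocytes below the median of the others). MPHOSPH8, the H3K9me3 reader of the HUSH complex, was at 647 ± 194 RPM in injected oocytes and 613 ± 95.7 RPM in the non-injected, and MORC2, an ATPase recruited by HUSH, at 19.0 ± 12.2 RPM in injected oocytes and 11.8 ± 7.73 RPM in the non-injected (adjusted p = 0.461).

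Among 7 tested writers of H3K36, H3K79 and H4K20 the highest were KMT5A, which monomethylates H4K20, at 115 ± 33.9 RPM in injected oocytes and 131 ± 29.0 RPM in the non-injected, and NSD3 (WHSC1L1 in the table) at 111 ± 38.7 RPM in injected oocytes and 114 ± 25.8 RPM in the non-injected. KMT5B was at 31.97 ± 9.80 RPM in injected oocytes and 22.1 ± 10.7 RPM in the non-injected (limma adjusted p = 0.347), and NSD2 at 15.9 ± 11.7 RPM in injected oocytes and 8.51 ± 7.08 RPM in the non-injected (adjusted p = 0.384). None was called (0.221% of all rows tested were). By limma 2 of the 7, KMT5B and NSD2, had an unadjusted p under 0.05, which is 28.6% against 12.4% of all rows tested. Below the filter with SETD2 were NSD1 at a mean of 6.01 RPM, DOT1L at 5.93 RPM and KMT5C at 9.43 RPM over all oocytes.

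Among 14 tested demethylases and partners outside the 10 enzymes none was called, where 0.221% of all rows tested were. KDM1A, the paralogue of KDM1B, was at 31.9 ± 12.3 RPM in injected oocytes and 19.0 ± 9.16 RPM in the non-injected and exceeded the median of the non-injected in 10 of 12 with injection (log2 fold change 0.62, standard error 0.23, limma adjusted p = 0.235). RIOX2 was at 103 ± 43.4 RPM in injected oocytes and 113 ± 16.5 RPM in the non-injected. Of 9 tested arginine methyltransferases and cofactors, 0 were called, where 0.221% of all rows tested were. By limma 0 had an unadjusted p under 0.05, against 12.4% of all rows tested. PRMT5, which makes symmetric dimethylarginine, was at 49.8 ± 24.0 RPM in injected oocytes and 56.9 ± 16.3 RPM in the non-injected, and its cofactor CLNS1A at 76.1 ± 18.6 RPM in injected oocytes and 92.1 ± 19.2 RPM in the non-injected. AHCYL2, a relative of the enzyme that clears the spent methyl donor, was at 161 ± 46.4 RPM in injected oocytes and 176 ± 27.6 RPM in the non-injected (adjusted p = 0.684).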

How the data were processed

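RNA of 24 single bovine oocytes was sequenced by CEL-seq2. The authors mapped reads to cDNA, collapsed reads that shared a gene and a UMI, and deposited RPM for 17071 rows. The submitters' processing notes name the build UMD3.1. Titles and genotype labels gave the groups, because the treatment label does not differ between samples. The deposited RPM include a statistical adjustment for repeated UMIs. It was undone with a capacity of 4048, which gave whole UMI counts for 100% of values (within 0.001).

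Groups were compared two-sidedly with limma 3.58.1 (R 4.3.3, moderated variances with a mean trend) on log2(RPM + 5). As alternatives, edgeR 4.0.16 and DESeq2 1.42.0 were run on the UMI counts, and the pseudocount, the filter, the scaling, the covariates, the variance model and the oocytes included were altered. Fits were tested on simulated data. Sums, ratios and levels are descriptions with no test, made in Python 3.11.15.

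The 10 genes and all lists were chosen with earlier results of these data known. The genes named from other lists are the 2 with the highest mean RPM and up to 2 with the smallest p in each list. KDM4B, KDM4C, KDM3A, JMJD1C, EZH1, SETDB2, GLYR1, ATF7IP, NSD1, DOT1L, KMT5C, ASH1L, SMYD2, SETD5 and PHF19, and the pairs compared, were added after their values were seen. No coordinates or sequences were used.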

Additional observations from a re-analysis of the deposited data

How the results depend on the processing

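The count of 0 called among the enzymes tested was the same under all 36 alternatives. Only the fits without the filter tested all 10, so EED, SETD2, KDM5B and KDM6A could not be called in the others. The log2 fold changes of EZH2, SETDB1, KDM1B, KDM4A and KDM6B kept their sign in each alternative that gave one. Single oocytes moved them by over 1.5 times: over the fits without 1 oocyte the range was -0.35 to -0.16 for EZH2, -0.23 to -0.066 for SETDB1, 0.068 to 0.21 for KDM1B, 0.072 to 0.26 for KDM4A and 0.10 to 0.27 for KDM6B. SUZ12 turned positive without injected oocyte 7, 8 or 11 or non-injected oocyte 1, 3 or 11 (range over single oocytes -0.12 to 0.066), and to 0.12 without injected oocyte 8, the least like the others, and non-injected oocyte 11, the shallowest. Over all its alternatives the adjusted p was at least 0.884 where one was given. Levels of the 10 enzymes and the ratio of writers to erasers moved by less than 1 SD under TMM, uncorrected UMI counts and without these 2 oocytes. Over the other lists DESeq2 called 1 gene where limma called 0.

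The background count of 16 called rows was unstable. It was 9 with a pseudocount of 1 RPM, 52 with a mean of at least 30 RPM, 0 without a filter (1332 at an unadjusted p under 0.05), 7 by edgeR, 116 by DESeq2, 29 with the UMI total as covariate, 34 with the robust fit and 0 without injected oocyte 8 and non-injected oocyte 11 (402 higher and 398 lower at an unadjusted p under 0.05). Leaving out 1 oocyte gave 0 to 37: 0 without non-injected 8, 10 or 11, 1 without injected 10, 2 without injected 6, 9 or 12, 4 without non-injected 6, 5 without number 1 of either group, 6 and 7 without injected 7 and 8, 10 without non-injected 3 or 12, 24 without non-injected 2, 25 without injected 3, and 37 without injected 4. The causes were not tested. The groups share replicate numbers, but no source used here says that a number marks an animal or a day, and deviations of same-numbered oocytes correlated over 0.1 in 2 of 12 pairs. With the number as a block 11 rows and 0 of the 6 enzymes tested were called, and 1 oocyte correlated best with its own number. Depth limits EED, SETD2, KDM5B and KDM6A, whose median was at most 2.5 UMIs per oocyte in either group.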
